A study of Mus musculus with 64 samples.

Results

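Nuclear-encoded subunits of respiratory complex I were examined in microglia that lack the Rieske iron-sulfur protein (RISP). The subunits were taken by gene symbol, as Nduf followed by a, b, c, s, v or ab and a number, without assembly factors and pseudogenes. This rule found 37 of the 45708 genes in the deposited count table, and all 37 passed the filter on low counts in every comparison. They comprise 7 core subunits, 9 supernumerary subunits of the matrix arm, 20 supernumerary subunits of the membrane arm, and Ndufa4, which carries a complex I name but is now placed with complex IV. The membrane arm is not complete here. Its subunit Ndufb1 had no row under that symbol and was not looked for under other symbols. Ndufab1, the acyl carrier protein, was counted with the membrane arm, although Ndufa6 of the matrix arm also holds it.

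The study measured RNA from microglia sorted from whole mouse brain as live cells stained for CD11b and CD45.2, in 64 libraries. RISP is encoded by Uqcrfs1, and the labels give its genotype as RISP KO, RISP Het or RISP WT, without naming the promoter that drives the deletion or the sex of the mice. Adult mice were naive, treated with cuprizone (a chelator of copper used to damage oligodendrocytes and remove myelin), or sampled after depletion or repopulation of microglia with PLX3397, an inhibitor of the CSF1 receptor on which microglia depend. Doses and days are not in the labels used here. Naive adult libraries form 3 sets by replicate number. The first naive set holds KO 1 to 5, Het 1 to 4 and WT 1 to 5, the second holds KO 6 to 11 and Het 5 to 11, and the third holds KO 12 and 13 and Het 12 and 13. Cuprizone gave 6 KO and 4 Het libraries, depletion 2 KO, 2 Het and 4 WT, and repopulation 4 of each genotype. A further 3 libraries came from old naive Het mice. The labels do not say that replicates are separate animals, so p-values measure the spread between these libraries, which may be partly technical.

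Complex I takes electrons from NADH, passes them along a chain of iron-sulfur clusters to ubiquinone and pumps protons across the inner mitochondrial membrane. Its core is shared with bacteria: the hydrophilic core subunits are encoded in the nucleus and the 7 hydrophobic ones in mitochondrial DNA, and around this core sit supernumerary subunits that serve assembly and stability. Complex III, of which RISP is a catalytic subunit, takes up the reduced ubiquinone that complex I makes, so the complexes work in series, and they also associate in supercomplexes.

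Uqcrfs1 was lower in every KO library than in every control library of its own set. In the first naive set it stood at 5.33 to 9.32 CPM (counts of a gene scaled to a library of fixed size) in KO, 19.0 to 37.7 in Het and 34.4 to 43.9 in WT. In the second it stood at 1.24 to 3.70 CPM in KO and 9.16 to 18.0 in Het, and in cuprizone at 0 to 1.47 and 10.3 to 12.9. Total counts per library ran from 2695432 to 24027566, and the cuprizone libraries were the shallowest, at 2695432 to 5100363. In the first naive set, KO and WT 1 to 4 stand apart in sample order from KO 5, Het 1 to 4 and WT 5. The labels name one sequencer model for untreated KO and WT and another for the rest, without giving it per library. Naive Het may thus have been read on another model than naive KO and WT. Genotype and sequencer could then not be told apart in naive comparisons with Het. The 10 microglia markers were detected in every group, with summed levels of 16897 CPM or more. In bulk samples fewer cells of a type and less RNA per cell cannot be told apart.

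Promoters of 33 members were matched by symbol in the RefSeq table for GRCm38.p6, as windows from 250 bases before the start to 50 after it. The windows were searched on both strands for letters bound by factors known for respiratory genes. AAGATGG, bound by YY1, was found in 7 members (21.2% against 6.34% of all promoter windows), and CCGGAAG, bound by ETS factors, in 4 (12.1% against 8.86%). The palindromic core motif of NRF1 was found in Ndufa11 alone (3.03% against 0.971%). CCAAT, bound by NF-Y, was found in 10 members (30.3% against 37.4%). These were Ndufa6, Ndufa13, Ndufb2, Ndufb3, Ndufb4, Ndufb11, Ndufc2, Ndufs6, Ndufs8 and Ndufv3. TGATGNAA, a composite site of ATF4 and CEBP factors, was found in no member and in 3.97% of all windows. These matches describe letters and not binding sites. Stretches upstream of the start that overlap no exon are shown for 4 members: Ndufa6 and Ndufv3, which had the most regular differences, Ndufs8, a core subunit with CCAAT in 3 places that was not called, and Ndufv2, a core subunit without any of these letters. Each is written 5′ to 3′ on the strand of its gene, with CCAAT or its reverse complement ATTGG in capitals.
Ndufa6, chr15:82354323-82354441, minus strand, from 150 to 32 bases before the start: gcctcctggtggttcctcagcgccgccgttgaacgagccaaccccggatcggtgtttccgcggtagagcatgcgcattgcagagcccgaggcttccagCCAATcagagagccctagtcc
Ndufv3, chr17:31519981-31520114, plus strand, from 134 to 1 bases before the start: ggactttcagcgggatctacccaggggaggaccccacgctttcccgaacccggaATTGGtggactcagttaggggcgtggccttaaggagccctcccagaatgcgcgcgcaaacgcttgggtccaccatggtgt
Ndufs8, chr19:3912775-3912924, minus strand, from 150 to 1 bases before the start: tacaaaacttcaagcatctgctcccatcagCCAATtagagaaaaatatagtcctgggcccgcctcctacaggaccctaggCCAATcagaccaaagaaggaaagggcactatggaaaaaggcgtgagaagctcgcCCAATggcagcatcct
Ndufv2, chr17:66101560-66101709, minus strand, from 150 to 1 bases before the start: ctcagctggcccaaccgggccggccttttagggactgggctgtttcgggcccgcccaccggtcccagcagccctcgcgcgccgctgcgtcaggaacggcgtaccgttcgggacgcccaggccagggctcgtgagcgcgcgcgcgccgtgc

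The members differed widely in level. Per kilobase of the principal transcript, mean levels in the WT libraries of the first naive set ran from 2.28 CPM per kb for Ndufb2 to 73.2 for Ndufc2, a small membrane-arm subunit. Ndufa4 (60.7 CPM per kb) and Ndufb8 (60.0), a membrane-arm subunit, came next, and their ranges over libraries overlapped. Ndufab1, the mitochondrial acyl carrier protein, was near the bottom at 4.25 CPM per kb, and Ndufc1 stood at 6.70. This order depends on the transcript taken as principal, since Ndufb2 and Ndufab1 have the longest ones at 4371 and 3479 bases.

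Summed over the members, WT libraries of the first naive set held 1005 to 1209 CPM, Het 945 to 1044 and KO 1134 to 1318. After depletion the sums were 1123 to 1472 CPM in WT, 1461 and 1908 in Het and 1500 and 1515 in KO, and after repopulation 1266 to 1444, 1290 to 1363 and 1494 to 1751. The second naive set was lower, at 539 to 897 CPM in Het and 695 to 901 in KO, as was cuprizone, at 494 to 670 in Het and 814 to 1099 in KO. The cuprizone and second naive sets also hold 2.22% to 6.70% of counts on the non-coding RNAs Gm26917 and Yam1, against at most 0.276% in the first naive and PLX3397 sets, so levels are compared only inside a set. KO lay above its controls without overlap in cuprizone, repopulation and the third naive set (928 and 1034 CPM against 857 and 890), and above Het but not WT in the first naive set. It overlapped the controls in the second naive set and after depletion.

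**Figure D1:**
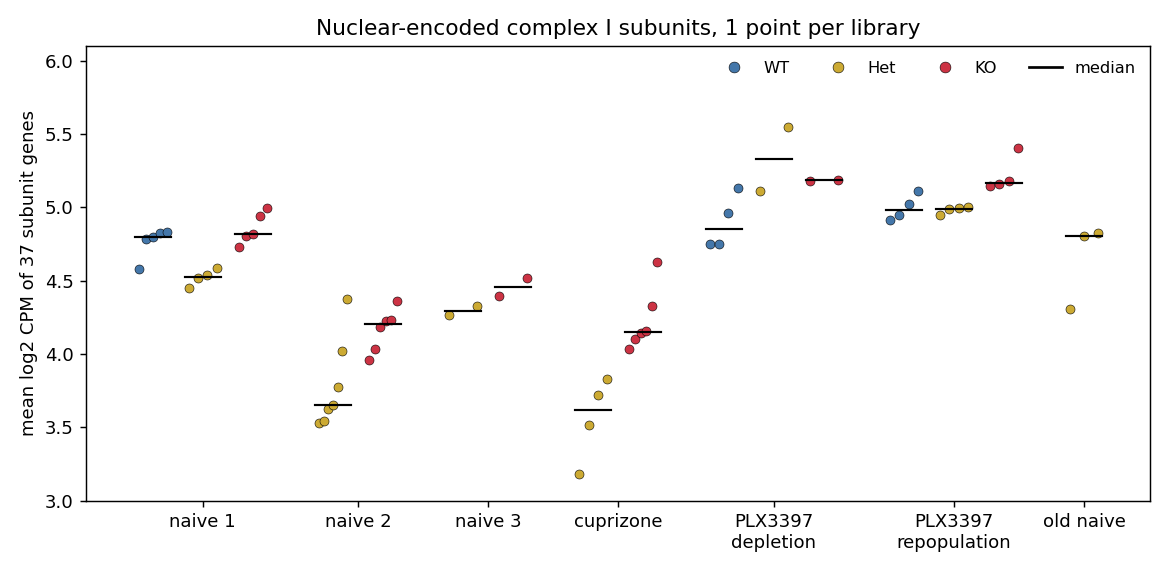
Mean log2 CPM over the 37 complex I subunit genes (vertical axis), 1 point per library, by set and genotype, with the group median as a line. The 6 cuprizone KO libraries (4.04 to 4.63) lie above the 4 Het libraries (3.18 to 3.83), while naive WT replicate 5 (4.58) lies below the other WT libraries of the first naive set.

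In the second naive set no subunit passed the test, although 35 of 37 had a positive log2 fold change in KO against Het. Every core and membrane-arm subunit was on the positive side, and only Ndufa12 and Ndufa4 were not. The median log2 fold change of the members was 0.29, with a range from −0.26 to 0.82. Members called higher numbered 0 of 37 and lower 0 of 37 by edgeR's quasi-likelihood test at a Benjamini-Hochberg adjusted p of 0.05 over all genes, where 2.89% of all genes tested were called higher and 4.28% lower. At an unadjusted p under 0.05, 9 members were higher and 0 lower. The shares of all genes at an unadjusted p, and with a positive value in a single comparison, were not counted, here or in the other comparisons. DESeq2 called 3 members higher, where it called 1474 of 12677 genes in either direction. No member had a KO range wholly above the Het range, against 1.33% of genes.

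Ndufa6, a matrix-arm subunit of the LYR family that holds the acyl carrier protein, had the smallest p of this set. It lies on chromosome 15 at 82350140 to 82354322 (GRCm38, minus strand, ENSMUSG00000022450), with no other annotated gene over it. Its KO values had a lowest of 23.6, a median of 29.9 and a highest of 45.1 CPM, and its Het values 14.5, 16.2 and 33.6. Het replicate 9, at 33.6 CPM, lay inside the KO range, and the other 6 Het libraries lay below it. The log2 fold change was 0.70 ± 0.21 (SE, n = 6 and 7, edgeR adjusted p = 0.0625).

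Ndufv2, an iron-sulfur core subunit next to the NADH site, stood at 26.1, 35.0 and 56.9 CPM in KO (lowest, median and highest) and at 17.7, 22.3 and 34.3 in Het, a log2 fold change of 0.65 ± 0.21 (edgeR adjusted p = 0.0761). Ndufa2, a matrix-arm subunit with a thioredoxin-like fold, stood at 16.0, 17.4 and 26.8 CPM against 5.12, 8.65 and 18.1 (0.77 ± 0.28, edgeR adjusted p = 0.113). In both the KO median lay above the Het median and the ranges overlapped, with Het replicate 10 as the highest Het library for Ndufv2 and Het replicate 9 for Ndufa2. Het replicate 9 also held the largest summed member level of its group (897 CPM), and without it 7 members passed the test. Without Het replicate 10, 2 passed. Genes called in either direction were 1501 of 12523 without Het replicate 9 and 783 of 12530 without Het replicate 10.

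After cuprizone 6 subunits were higher in KO than in Het and none lower, and the differences were the largest of the study's comparisons in median. They included the core subunit Ndufv1, 3 matrix-arm subunits, Ndufa6, Ndufa2 and Ndufv3, and Ndufab1, counted here with the membrane arm. All genes were called higher in 3.7% and lower in 5.98% of tests. The median of the members was 0.63 with a range from −0.34 to 1.71, and 35 of 37 were positive, Ndufa5 and Ndufs3 being the others. In 9 members the KO range lay wholly above the Het range, against 6.35% of genes.

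Ndufv1, the subunit that binds NADH and FMN, stood at 29.1, 34.1 and 46.0 CPM in cuprizone KO (lowest, median and highest of 6) and at 17.1, 19.3, 23.0 and 21.4 in Het replicates 1 to 4. Every KO library was above every Het library, and the log2 fold change was 0.75 ± 0.17 (edgeR adjusted p = 0.0166). Ndufa6 stood at 27.8, 39.1 and 40.6 CPM in KO and at 14.1, 8.11, 21.9 and 23.3 in Het, again without overlap (1.05 ± 0.25, edgeR adjusted p = 0.0230).

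Ndufa2 and Ndufv3, a small subunit of the NADH-binding module, rose by 0.90 ± 0.22 and 0.87 ± 0.23 on the log2 scale (edgeR adjusted p = 0.0254 and 0.0325), and neither overlapped Het. Ndufab1 had the largest difference of a called member, 1.71 ± 0.44 (edgeR adjusted p = 0.0310), on low levels. It stood at 11.7, 19.5 and 38.2 CPM in KO and at 3.54, 12.2, 3.70 and 6.42 in Het, so that Het replicate 2 lay above the lowest KO library. Core subunits that were not called included Ndufs8 (0.38 ± 0.21), Ndufv2 (0.30 ± 0.29) and Ndufs3 (−0.06 ± 0.23).

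The cuprizone count rests on few Het libraries. Without Het replicate 1 no member passed the test, although the median was then 0.70, and without Het replicate 3 the count was 3. Genes called in either direction were 629 of 11262 without Het replicate 1 and 719 of 11287 without Het replicate 3. Whether the cuprizone difference exceeded that of the second naive set was tested directly on all 64 libraries. No member was called in either direction (0.179% of genes were), and the smallest adjusted p was 0.157, for Ndufab1. By unadjusted p under 0.05, 7 members had a larger and 2 a smaller difference in cuprizone. DESeq2 called 0.

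**Figure D2:**
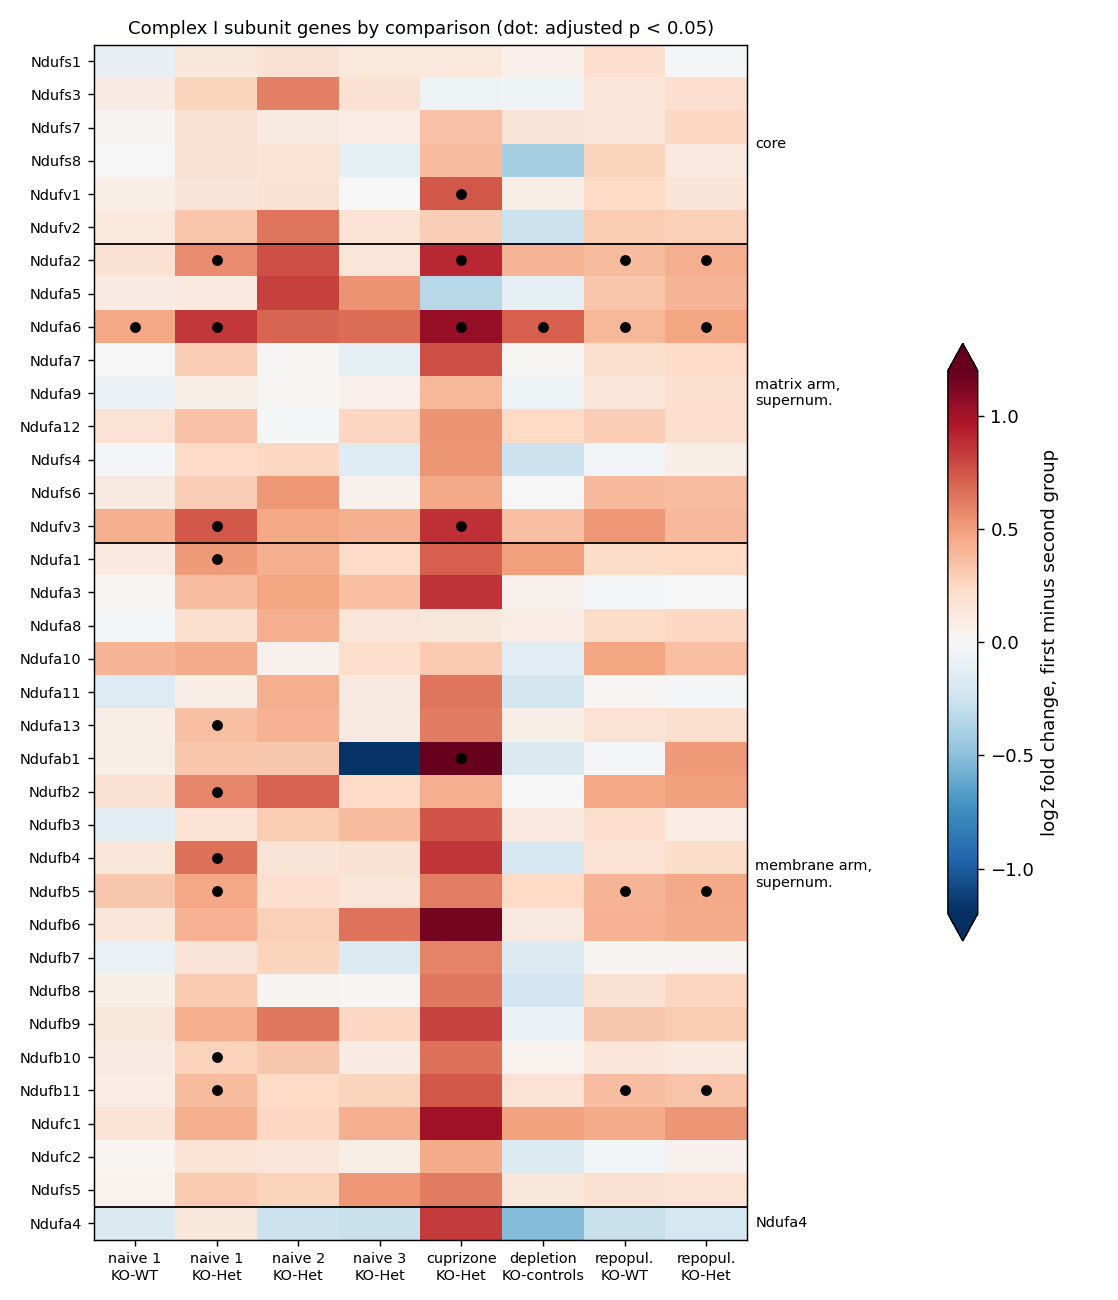
Log2 fold changes (colour, first minus second group) of 36 members in 8 comparisons of KO with controls, ordered by role, with a dot where the edgeR adjusted p was below 0.05. Ndufa6 carries a dot in 6 of the 8 columns, and colours saturate at the ends of the scale, so that Ndufab1 after cuprizone (1.71) is beyond it.

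In the first naive set Ndufa6 was the 1 subunit higher in KO than in WT, and none was lower, beside 2.57% of genes called higher and 2.59% lower. Ndufa6 stood at 26.8, 30.6, 40.0, 38.9 and 32.4 CPM in KO 1 to 5 and at 22.6, 27.0, 23.99, 26.5 and 20.8 in WT 1 to 5. Only KO 1 fell inside the WT range, just below the highest WT library. The log2 fold change was 0.47 ± 0.11 (edgeR adjusted p = 0.00762). With KO 1 to 4 set against WT 1 to 4 alone it was 0.43 and not called. Ndufv3 followed, at 22.4, 36.3, 34.1, 30.1 and 26.0 CPM in KO and 24.4, 21.4, 26.0, 23.2 and 13.9 in WT (0.44 ± 0.16, edgeR adjusted p = 0.126). The KO values were spread over and above the WT values. Without KO 1, 2 members passed the test, and 1426 of 15653 genes were called in either direction. The median of the members was 0.08 (28 of 37 positive), and 1 member had a KO range above WT, against 1.71% of genes. The core subunits differed little, between −0.10 for Ndufs1 and 0.13 for Ndufv2.

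Against Het of the same set, 10 members were higher in KO and 0 lower, beside 4.35% of genes called higher and 4.11% lower. All 37 had positive values, with a median of 0.31, and 17 had KO ranges above Het, against 5.71% of genes. The called members were 3 of the matrix arm and 7 of the membrane arm, and no core subunit was among them. Ndufa6 had the smallest p, with Het at 15.9, 20.4, 17.5 and 20.2 CPM, all below the lowest KO library (0.85 ± 0.12, edgeR adjusted p = 1.388e-05). Ndufa2 stood at 29.5, 29.0, 36.5, 34.02 and 28.1 CPM in KO and at 24.8, 21.1, 19.2 and 18.8 in Het (0.57 ± 0.12, edgeR adjusted p = 0.00213). It too showed no overlap. Ndufv3 (0.75 ± 0.17), Ndufa1 of the membrane arm (0.52 ± 0.13) and Ndufa13, also known as GRIM-19 (0.37 ± 0.10), were the other 3 with the smallest p.

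The Het libraries stand with KO 5 and WT 5 in sample order, apart from KO 1 to 4. The sequencer may also differ between KO and Het. A term was then added that separates KO and WT 1 to 4 from KO 5, Het 1 to 4 and WT 5. It was fitted to the first naive set alone. No member was then called, the median was 0.13 and Ndufa6 had 0.72. Genes called in either direction were 162 of 13788, where 682 of 15664 were higher and 644 lower without the term. All Het libraries lie on one side of the term, so KO 1 to 4 enter this comparison only through WT. Whether sample order or lower precision removed the calls was not tested. The groups' mean log2 CPM over the members was 4.81 to 5.00 in KO 1 to 4 and 4.78 to 4.83 in WT 1 to 4, but 4.73 in KO 5, 4.58 in WT 5 and 4.45 to 4.59 in the Het libraries. Inside the later libraries, KO 5 was above all 4 Het libraries in 26 of 37 members and below all in 2. WT 5 was above all in 8 and below all in 5. No test was made, with 1 KO and 1 WT library. The share of all genes was not counted, so whether these counts are particular to the members is not known. Mean log2 CPM of cytosolic ribosomal protein genes was 8.25 in KO 5, 7.34 in WT 5 and 7.14 to 7.29 in Het. Without Het replicate 3 the count was 4, and without KO replicate 3 it was 6. Genes called in either direction were 859 of 15644 without Het replicate 3 and 1026 of 15632 without KO replicate 3. The difference between the KO effects of the first and second naive sets was called for 0 members by edgeR and by DESeq2 (0.543% of genes by edgeR), with 0 members at an unadjusted p under 0.05.

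Het and WT of the first naive set gave 0 members called in either direction, as they gave 0% of all genes, although all 37 values were negative with a median of −0.24. Ndufa6 (−0.38 ± 0.12, edgeR adjusted p = 0.154), Ndufa2 (−0.38 ± 0.12, edgeR adjusted p = 0.155) and Ndufa1 (−0.39 ± 0.13, edgeR adjusted p = 0.162) had the smallest p. At an unadjusted p under 0.05, 14 members were lower. DESeq2 called 3 members lower, where it called 259 of 15664 genes in either direction. In 6 members the Het range lay wholly below WT, against 2.85% of genes. With the sample-order term the median was −0.05, and without WT 5 the 2 members Ndufa6 and Ndufb11 were lower. Without WT 5, 553 of 15668 genes were called in either direction. The sequencer may differ between Het and WT as well.

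The third naive set, with 2 libraries a group, gave 0 members called by edgeR and by DESeq2, beside 0% of genes higher or lower by edgeR. At an unadjusted p under 0.05, 1 member was higher and 1 lower. Ndufab1 stood at 8.0 and 5.27 CPM in KO and 19.9 and 9.61 in Het (−1.18 ± 0.38, edgeR adjusted p = 0.387), the opposite sign to cuprizone. Ndufa6 stood at 43.1 and 50.6 CPM against 29.9 and 27.8 (0.67 ± 0.28, edgeR adjusted p = 0.490), and Ndufa5 had 0.54 ± 0.27. Both Ndufa6 pairs were apart, but with 2 libraries a group KO ranges lay above Het for 24.4% of all genes and for 19 of the 37 members.

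After PLX3397 depletion, with 2 KO libraries, Ndufa6 was the 1 member higher than the controls and none was lower, beside 2.9% and 2.5% of genes. Controls were the mean of the Het and WT groups. Ndufa6 stood at 50.3 and 45.9 CPM in KO, 27.4 and 36.7 in Het and 27.5, 26.2, 25.7 and 23.6 in WT. Both KO libraries lay above every control (0.72 ± 0.14, edgeR adjusted p = 0.00112), and 1 of 37 members did so, against 8.38% of genes. Ndufa1 stood at 31.4 and 37.4 CPM in KO, 22.0 and 33.2 in Het and 22.3, 21.0, 21.3 and 19.2 in WT (0.49 ± 0.15, edgeR adjusted p = 0.0524), with Het 2 inside the KO range.

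The members as a group did not lean one way after depletion, with 20 of 37 positive and a median of 0.04. The core subunit Ndufs8 was at −0.40 ± 0.13 (edgeR adjusted p = 0.0844). The choice of control moved the count: against WT alone 4 members were higher (median 0.24), and against Het alone 0 were higher and 2 lower (median −0.23). Genes called in either direction were 905 of 15664 against WT alone and 531 of 15664 against Het alone. The Het libraries themselves differed, at 1461 and 1908 CPM summed over the members. Leaving out a Het or KO library leaves 1 in its group, so only effect sizes are given. Without KO replicate 1 the log2 fold change of Ndufa6 was 0.66. The median of the members was 0.105 without Het replicate 2 and −0.03 without Het replicate 1.

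During repopulation 4 subunits were higher in KO than in WT and none lower, and the same 4 were higher in KO than in Het, which shares the KO libraries. They are Ndufa6 and Ndufa2 of the matrix arm and Ndufb5 and Ndufb11 of the membrane arm, the last encoded on the X chromosome. Of all genes, 6.68% were higher and 6.26% lower against WT, and 6.37% and 6.21% against Het, so the members' share was not far from that of genes at large. The medians were 0.20 against WT (32 positive) and 0.23 against Het (33 positive).

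Ndufb11 stood at 92.7, 75.1, 88.0 and 82.7 CPM in repopulation KO, 66.2, 62.3, 57.3 and 74.1 in WT and 66.5, 64.2, 64.9 and 70.1 in Het. The log2 fold change was 0.37 ± 0.11 against WT (edgeR adjusted p = 0.0172) and 0.34 ± 0.11 against Het (0.0311). Ndufa6 stood at 64.4, 57.0, 63.6 and 68.3 CPM in KO, 42.2, 41.6, 53.2 and 54.3 in WT and 43.9, 47.0, 43.9 and 46.5 in Het (0.40 ± 0.12, edgeR adjusted p = 0.0260, and 0.47 ± 0.12, 0.00839). For both genes every KO library was above every control library. Ndufa2 stood at 62.9, 47.5, 50.9 and 46.7 CPM in KO against 34.4, 39.1, 44.9 and 40.8 in WT and 33.8, 39.5, 35.8 and 43.8 in Het, also apart (0.38 ± 0.12 and 0.43 ± 0.12). Ndufb5 had 0.41 ± 0.13 and 0.45 ± 0.13.

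KO ranges lay above WT in 10 members (9.86% of genes) and above Het in 13 (10.2% of genes). KO replicate 1 was the highest library, with 1751 CPM summed over the members, and without it no member passed against WT and 1, Ndufa6, passed against Het. Leaving out WT replicate 1 left 1 call and WT replicate 2 left 2 of the 4 against WT. Against Het, leaving out Het replicate 2 left Ndufa6 and Ndufa2, leaving out Het replicate 3 left Ndufa6 and Ndufb5, and without Het replicate 1 Ndufa6 and Ndufb6 were called. Against WT, Ndufa6 was also not called without KO replicate 3 or 4 or WT replicate 1 or 2. Genes called in either direction without KO replicate 1 were 1579 of 15641 against WT and 1515 of 15641 against Het. Against WT they were 1536 of 15648 without WT replicate 1 and 1642 of 15638 without WT replicate 2. Against Het they were 1667 of 15652, 1589 of 15657 and 1521 of 15619 without Het replicates 1, 2 and 3. With all libraries 1047 of 15664 genes were higher and 981 lower against WT, and 998 and 973 against Het. The core subunits ran from 0.14 for Ndufs3 to 0.30 for Ndufv2 against WT, none called. Het against WT gave 0 members called by edgeR and by DESeq2, beside 0% of genes by edgeR, with 1 member higher and 1 lower at an unadjusted p under 0.05 and a median of −0.02. The smallest p there belonged to Ndufab1, at 12.7, 12.9, 15.5 and 8.25 CPM in Het and 18.3, 18.5, 16.0 and 18.6 in WT (−0.53 ± 0.22, edgeR adjusted p = 1). Its Het libraries lay just below WT. The KO effect of repopulation less that of the first naive set, both against WT, was called for 0 members by edgeR and by DESeq2 (0.038% of genes by edgeR), and 0 had an unadjusted p under 0.05.

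**Figure D3:**
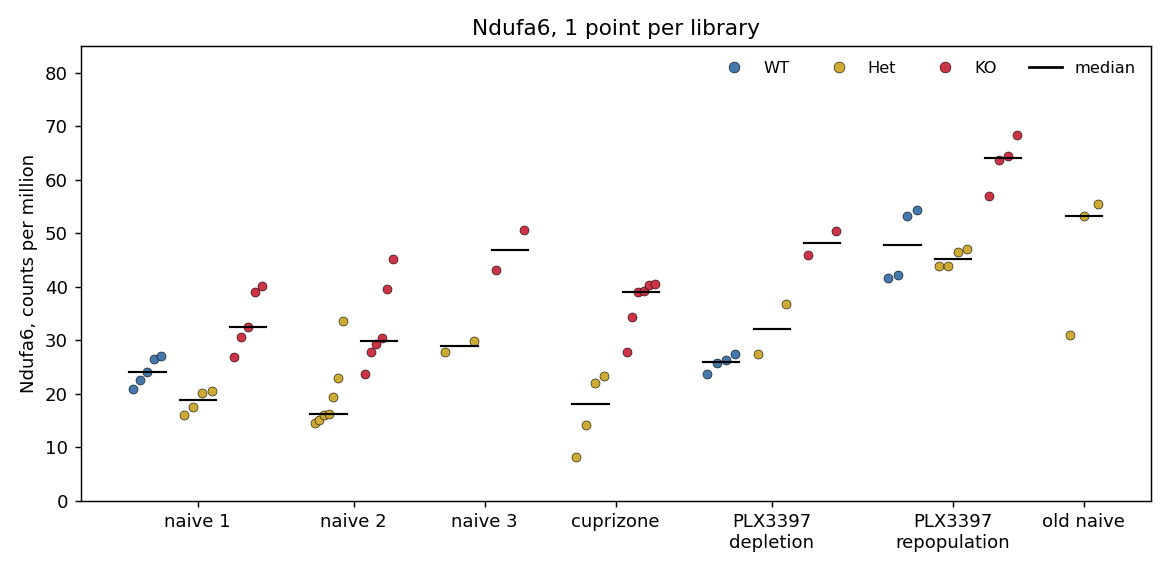
Ndufa6 in CPM (vertical axis, linear from 0), 1 point per library, by set and genotype, with the group median as a line. KO libraries lie above all controls in cuprizone, depletion, repopulation and the third naive set, and overlap WT in the first and Het in the second naive set.

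Ndufa6 was the most regular member. It had the smallest p of the 37 in 5 of the 8 comparisons of KO with controls and the next smallest in the other 3, and its log2 fold change was positive in all 125 alternative settings of those comparisons, being called in 76. Those settings refit the same libraries, so they are not independent support. The KO libraries of the first naive set and of repopulation also enter comparisons with both WT and Het. The order of members was otherwise only partly shared. Over the 6 comparisons of KO with controls that share no library (first naive set and repopulation against WT, the second and the third naive set and cuprizone against Het, depletion against both), 14 of 37 members were positive in all 6, against 14.8% of the genes tested in all 6. Those included Ndufa6 (0.40 to 1.05), Ndufv3 (0.36 to 0.87), Ndufc1 (0.16 to 1.00), Ndufa2 (0.14 to 0.90) and Ndufb5 (0.14 to 0.62), named here after their values were seen. Ndufa4 was at the other end, positive in cuprizone alone (0.84 ± 0.39, edgeR adjusted p = 0.197) and between −0.52 and −0.18 in the other 5. It passed the test in none of these main fits. Against Het alone after depletion, Ndufa4 and Ndufs8 were called lower (531 of 15664 genes in either direction). With all 64 libraries in the fit Ndufa4 was called higher in cuprizone (2576 of 18413 genes in either direction).

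Across the 37 genes, which are not independent replicates, Spearman's rho between log2 fold changes was 0.748 for the first naive set against WT with repopulation against WT. It was 0.045 for the second naive set with cuprizone. Libraries of each pair are separate, but the first pair shares a fit and a library kind. With transcript length rho ran from −0.355 (cuprizone) to 0.161, and with the level per kilobase in WT of the first naive set from −0.408 to 0.05.

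Other genes of the pathway gave a mixed picture. For these and the lists that follow, the shares of all genes called are those given above for each comparison. The 14 assembly factors, which build complex I and are not part of it, gave 0 to 2 calls higher in each comparison of KO with controls and none lower. The calls were Ndufaf7, a methyltransferase, in the first naive set against Het (0.37 ± 0.09, edgeR adjusted p = 0.00824) and Ecsit (0.68 ± 0.20, 0.0209) and Ndufaf1 (0.66 ± 0.21, 0.0356) in repopulation against Het. The 7 complex I genes of mitochondrial DNA were called higher in 6 cases in the first naive set against WT (median 0.64), 5 in the second naive set (0.79) and 5 after depletion (0.80). They gave 1 call in cuprizone (mt-Nd1, 1.14 ± 0.30, edgeR adjusted p = 0.0318), 1 in the first naive set against Het and 2 in each repopulation comparison. In the third naive set 0 of 7 were called at a median of 1.61 (1.23 to 1.92), with all 7 KO ranges above Het, against 24.4% of all genes. Of 9 regulators of respiratory genes, such as Nrf1, Gabpa and Ppargc1b, none was called in any of these comparisons.

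The other respiratory complexes gave counts that varied with the set. Of 10 complex IV genes, 5 were higher in the first naive set against Het, 4 and 3 in repopulation against WT and Het, 2 after depletion, 1 in the first naive set against WT and 0 in the second naive set and cuprizone. Of 15 complex V genes, 5 and 1 were higher in the first naive set (against Het and WT), 1 in the second, 3 in cuprizone and 2 and 4 in repopulation. Of the 8 complex III genes beside Uqcrfs1, 1 was called in each of 3 comparisons, and it was Uqcrh, a hinge protein, in the first naive set against Het and in cuprizone, and Uqcrq in repopulation against Het. No gene of complex II was called.

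Cytosolic ribosomal protein genes had larger differences than the members. They were higher in 76 of 80 in the first naive set against WT (median 0.77) and 77 of 80 against Het (1.00), 63 of 78 in the second naive set (0.86), 75 of 78 in cuprizone (1.27), 76 of 80 after depletion (0.93) and 72 and 76 of 80 in repopulation (0.61 and 0.68). In the third naive set, with 2 libraries a group, 0 of 78 were called at a median of 1.04. Mitochondrial ribosomal protein genes were nearer the members, with 0 in the third naive set and 1 to 8 of 77 called higher in the others (4 of 76 in cuprizone) and medians from −0.02 to 0.41. The mean log2 CPM of cytosolic ribosomal proteins was 6.40 to 7.63 in Het and 7.33 to 8.003 in KO of the second naive set, and Het replicate 9, the Het library with the highest member sum, was also the highest Het library in ribosomal proteins. In cuprizone it was 5.83 to 6.78 in Het and 7.37 to 8.18 in KO. The part of this shift in the subunits' values was not tested.

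**Figure D4:**
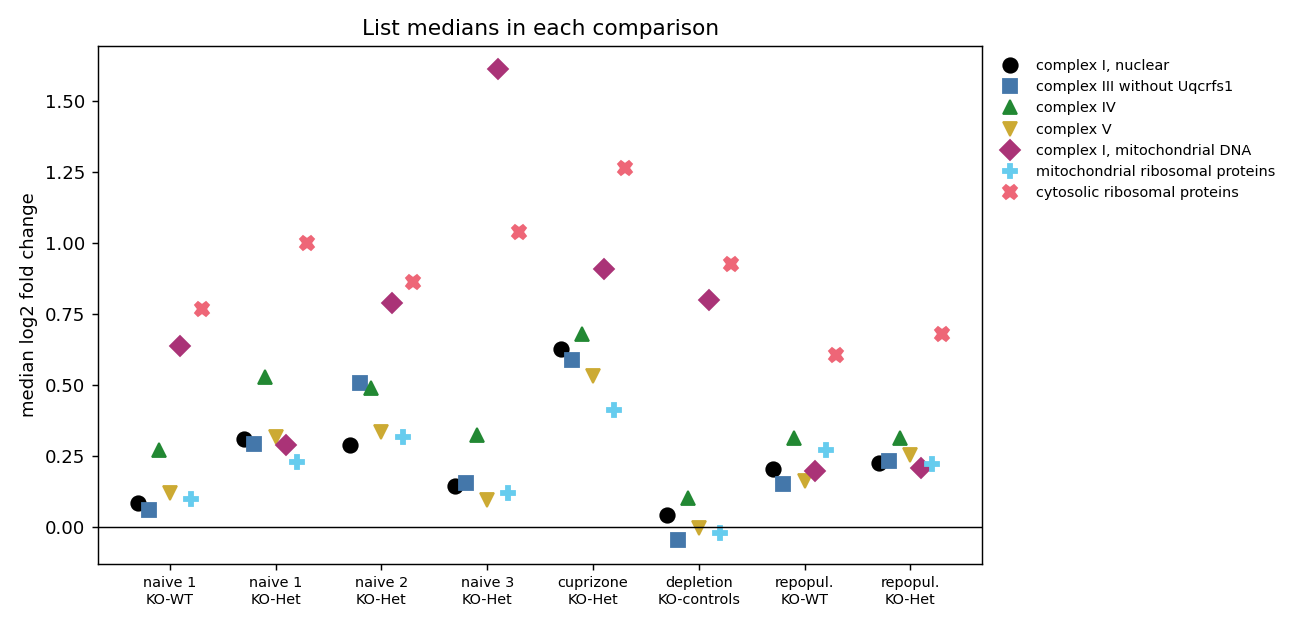
Median log2 fold change (vertical axis) of 7 gene lists in 8 comparisons of KO with controls, 1 symbol per list. Cytosolic ribosomal proteins lie above the nuclear complex I genes in all 8 (0.61 to 1.27 against 0.04 to 0.63).

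**Figure D5:**
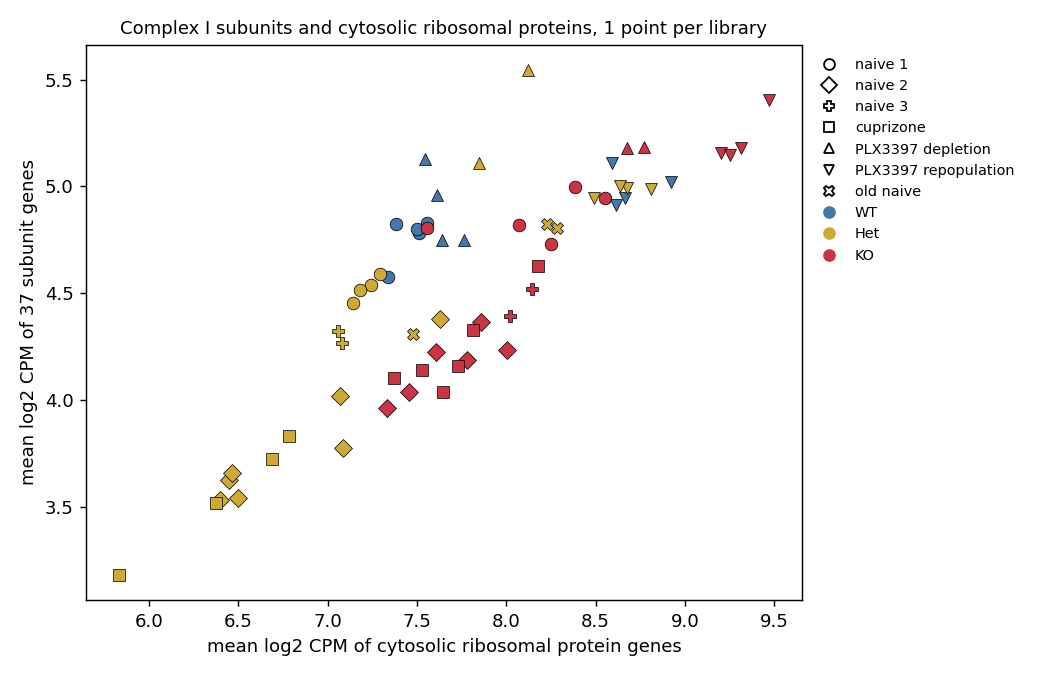
Mean log2 CPM of the 37 members (vertical axis) against that of cytosolic ribosomal protein genes (horizontal axis), 1 point per library, with shape for the set and colour for the genotype. Inside the second naive set and cuprizone the KO libraries lie to the right of most Het libraries and higher.

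Markers of other cells also moved with genotype in some sets. In the first naive set the 8 border macrophage markers summed to 803 to 1663 CPM in KO, 1889 to 3161 in WT and 1804 to 2474 in Het, with none of the 8 at 0 in all libraries. The 5 monocyte markers summed to 5.35 to 18.7 CPM in KO, 27.2 to 47.7 in WT and 21.3 to 26.6 in Het, again with no gene at 0 throughout. In repopulation the 6 endothelial markers summed to 54.6 to 107 CPM in KO, 127 to 200 in WT and 99.2 to 208 in Het. After depletion the 7 neutrophil markers summed to 1.44 and 59.0 CPM in the KO libraries and to 0.561 to 4.12 in the controls, where Ly6g was at 0 in Het and WT, and the microglia markers to 35278 and 35841 CPM in KO and 42811 to 49994 in the controls. Microglia markers were also apart in repopulation KO (40154 to 44009 CPM) and WT (45145 to 53632), and in first naive KO (38985 to 45113) and Het (45488 to 51109), with 3 of 10 called lower in each. In the second naive set the border macrophage sums overlapped (474 to 1103 CPM in KO and 698 to 1172 in Het), and in cuprizone the 6 neuron markers summed to 10.9 to 17.4 CPM in KO and 3.54 to 13.7 in Het, with Snap25 and Tubb3 at 0 in Het. The 6 astrocyte markers in cuprizone summed to 138 to 173 CPM in KO and 107 to 129 in Het, with Aqp4 at 0 in Het. The part of these cells in the subunits' values was not tested.

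Counting strand is not given in the sources used here, so reads from overlapping genes on opposite strands cannot be told apart. This touches Ndufa2 (Tmco6), Ndufb11 (Rbm10) and Ndufb5 (Mrpl47), but not Ndufa6, Ndufv1 or Ndufv3, which no annotated gene overlaps.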

How the data were processed

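Microglia RNA was measured in 64 libraries, and total counts of 2695432 to 24027566 per library set the precision. The deposited table holds the authors' whole-number counts for 45708 genes, without normalization, per the file header. The authors used a stranded total RNA kit, and the submitters' processing notes name GRCm38, Salmon 1.5.2, STAR 2.6.1d, bcl2fastq 2.20 and Trim Galore 0.6.7 without roles, while the tool that made the counts and its strand setting are not given in the sources used here. The labels name one sequencer model for untreated KO and WT and another for the rest, not per library.

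Groups came from genotype, treatment, age group and replicate number. The counts were tested with edgeR 4.0.16 (R 4.3.3, TMM scaling, filterByExpr with minimum count 10 and minimum total 15, glmQLFit and glmQLFTest, two-sided), with Benjamini-Hochberg adjustment over all genes and a threshold of 0.05. The first naive set, depletion and repopulation were fitted together (34 libraries, 15664 genes), the second naive set alone (13, 12677), cuprizone alone (10, 11031), and the third naive set with the old Het libraries (7, 15786). Differences between comparisons used all 64 (18413 genes), which also gave the CPM shown. A mean log2 CPM has 0.5 added. DESeq2 1.42.0, other scaling and filters, other libraries in the fit, a replicate block, terms for sample order and leaving out each library were the alternatives. The scripts were tested on simulated data. In a chi-square check of 114 replicate pairs, the smallest value was 12.4 per degree of freedom, so no pair agreed within sampling noise.

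Replicate numbers are shared between genotypes, but correlations of same-numbered libraries did not all exceed 0.1, so numbers were not taken as pairs. Named members are the 5 called with the smallest p in each direction, or the 3 with the smallest p where none was called, and the core subunits. Values per library are given for the 4 members of the second naive set and 2 of each other comparison with the smallest p, and for other members after their values were seen. The values of 1 member are not reported here, although it stays in all counts and sums. Other lists were described by counts and medians. The members, the library sets and the lists were chosen with earlier results of these data known. Gene positions are from GENCODE M21 on GRCm38.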

Additional observations from a re-analysis of the deposited data

Results flagged for a closer look

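Among 110 groups of 4 to 7 values (the members' mean log2 CPM and 9 members in each group of libraries), 11 had a library whose gap to its neighbour was too large a share of the group's range by Dixon's 95% value, where chance gives about 1 in 20. The mean log2 CPM over the members was 4.58 in naive WT replicate 5, below the other WT libraries of its set (4.78 to 4.83), and 5.40 in repopulation KO replicate 1, above the others (5.15 to 5.18). Ndufa1 was also highest in repopulation KO replicate 1, at 33.7 CPM against 28.9 to 29.6.

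Libraries far above their group were repopulation WT replicate 3 for Ndufv2 (36.7 CPM against 28.9 to 29.5), naive Het replicate 10 for Ndufs1 (67.1 against 33.9 to 47.9), naive KO replicate 11 for Ndufa2 (26.8 against 16.0 to 19.1), cuprizone Het replicate 2 for Ndufs1 (78.3 against 38.0 to 44.3) and cuprizone KO replicate 3 for Ndufa1 (7.67 against 4.06 to 5.31). Libraries far below were naive WT replicate 2 for Ndufab1 (10.5 CPM against 14.9 to 16.6), repopulation Het replicate 2 for Ndufv1 (51.4 against 59.9 to 61.7) and repopulation WT replicate 3 for Ndufab1 (16.0 against 18.3 to 18.6).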

How the results depend on the processing

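For the members chosen by p in each comparison (without core subunits named for their role), 382 alternative values kept their direction and side of the threshold, 96 kept their direction but were no longer called, 13 were newly called, and 0 turned. Counts of members called higher moved as follows, with the cause not tested. Where brackets follow an alternative count, they give the genes called in either direction among those tested. These also moved between settings. In the first naive set against WT (1 called) the count was 0 with all 64 libraries in the fit (356 of 18413). It was 0 with only the libraries compared (256 of 13136) and 0 with a replicate block (7 of 13136). It was 0 for KO 1 to 4 against WT 1 to 4 (10 of 13303) and 1 to 2 leaving out 1 library. Against Het (10) it was 2 with all 64 (502 of 18413) and 0 with a replicate block (0 of 13121). The sample-order term gave 0 (162 of 13788) and leaving out 1 library 4 to 11. In Het against WT DESeq2 called 3 lower (259 of 15664), and leaving out 1 library gave 0 to 2. In the second naive set (0) DESeq2 gave 3, all 64 libraries 10, a replicate block 1 and leaving out 1 library 0 to 7. The main fit of that set called 366 of 12677 genes higher and 542 lower. For all 64 libraries and for the block, the genes called among all tested are not given here. Whether the rise to 10 is particular to the members was not tested. In cuprizone (6) DESeq2 gave 11 (1579 of 11031), all 64 libraries 24 (2576 of 18413) and a replicate block 0 (516 of 11031). Leaving out 1 library gave 0 to 7 (1041 of 10926 without KO replicate 5). After depletion (1) DESeq2 gave 2 higher and 1 lower (1212 of 15664), and all 64 libraries 0 (316 of 18413). Only the libraries compared gave 0 (317 of 13948) and a replicate block 0 (175 of 13948). WT alone gave 4 higher (905 of 15664), and Het alone 0 higher and 2 lower (531 of 15664). Leaving out 1 WT library gave 1 higher and 0 lower (864 of 15640 without WT replicate 4). Leaving out a Het or KO library leaves 1 in its group, so those counts are not given. The median changed sign with Het alone (−0.23), without Het replicate 1 (−0.03) and with the block (−0.03). In repopulation against WT (4) no filter gave 1 (1483 of 27568), DESeq2 7 (2493 of 15664) and all 64 libraries 0 (881 of 18413). Only the libraries compared gave 2 (1722 of 12751) and a replicate block 1 (1332 of 12751). Leaving out 1 library gave 0 to 5 (1805 of 15659 without WT replicate 3). Against Het (4) all 64 gave 0 (851 of 18413) and a replicate block 1 (1225 of 12773). There, leaving out 1 library gave 1 to 6 (1734 of 15638 without KO replicate 4). Same-numbered libraries correlated between −0.317 and 0.351, and in no comparison did every library correlate best with its own number. In the third naive set, where that correlation was −0.106, a replicate block with crossed numbers, chosen after seeing the data, gave 0 members higher and 0 lower, as did the numbers as labelled. Where leaving out a library left 1 in a group, that library was assumed to vary like the others. Depth limits cuprizone most, with total counts of 2695432 to 5100363.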

Other observations

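The 3 old naive Het libraries enter no comparison of genotypes. Summed over the 37 members they held 837, 1206 and 1220 CPM, against 857 and 890 in the adult Het libraries of the third naive set, with which they were fitted. Ndufa6 stood at 53.1, 31.0 and 55.5 CPM in old Het replicates 1 to 3 and at 29.9 and 27.8 in those adult Het libraries, and Ndufv3 at 55.3, 31.2 and 60.3 CPM against 33.4 and 24.9. Old replicate 2 was the lowest of the 3 for both genes and in the members' sum. The old libraries hold 5.93% to 13.5% of counts on Gm26917 and Yam1 and the adult ones 4.81% to 5.49%.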
